A study of Macaca mulatta with 20 samples.

Results

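Cytosolic ribosomal protein genes encode the protein parts of the ribosome outside mitochondria. They were taken as all genes whose single symbol in the array annotation is RPL or RPS with a number, with suffixes such as A, L, AL, X or Y1 allowed, or RPLP0, RPLP1, RPLP2 or RPSA. Pseudogenes and the RPS6K kinases were left out. The rule found 69 genes among 21951 genes with a single symbol: 40 of 14132 on the rhesus arrays, 61 of 19775 on the human arrays, and 32 on both. The rule uses symbols and no measured value, and the family itself was picked with earlier results of these data known. Further ribosomal protein symbols stood only on probe sets that carry several symbols, 10 on rhesus and 15 on human arrays. RPLP0 and RPSA were among them on the rhesus arrays, and they and RPS4Y2 were not analysed here.

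A ribosome joins a small subunit (40S) and a large subunit (60S), and each subunit is ribosomal RNA (rRNA) bound by a set of proteins made in near equal numbers. Many mRNAs of these proteins start with a terminal oligopyrimidine (TOP) tract, through which the mTOR kinase pathway controls their translation together. A few of the genes have a paralog with a narrower or different use, such as RPL3L in striated muscle and RPL10L and RPL39L in testis.

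The study read rhesus macaque RNA of pancreas, cerebral cortex, immortalized fibroblasts, testis and thymus, with 2 types of Affymetrix array. Each was read on 2 Rhesus Macaque Genome Arrays (rhesus arrays) and on 2 Human Genome U133 Plus 2.0 arrays (human arrays), which made 20 arrays from biotin-labelled cRNA of 5 ug total RNA. Arrays of the same source are technical replicates by their labels, so p-values measure the spread between arrays of 5 RNA preparations and not between animals. No source used here gives the number, sex or age of the animals, and the fibroblasts were a cultured line. With 2 arrays per source, the number of arrays limits the precision.

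Levels are the deposited log2 values, 1 per probe set and array. Each gene is represented by its brightest probe set over the 10 arrays of a type. A source was set by limma against the average of the remaining 4, over all probe sets of an array type except the controls. Calls of higher or lower needed an adjusted p (Benjamini-Hochberg) under 0.05 together with a log2 difference of 1 or more in size. Counts at an unadjusted p below 0.05 are given without the share of all genes and are not read as a trait of these genes. The markers chosen for each source were called higher there on both array types: all 6 pancreas markers, all 6 testis markers and all 5 fibroblast markers measured, 4 and 5 cortex markers, and 4 and 5 thymus markers. In pancreas 1 of 4 and 1 of 5 cortex markers, 1 and 3 of 5 fibroblast markers and 1 and 1 of 6 testis markers were also called higher, and their part in the pancreas results was not tested. Arrays of the same source differed little in the ribosomal protein genes. The median absolute difference between them was 0.03 to 0.08 on rhesus and 0.04 to 0.10 on human arrays. The widest gaps were 0.87 for RPL31 in pancreas on the rhesus arrays and 1.80 for RPL10L in fibroblasts on the human arrays. In these bulk preparations, fewer cells of a type and less RNA per cell cannot be told apart.

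Most ribosomal protein genes were read far above background. Bacterial control transcripts that were not spiked averaged at most 3.12. The mean level over the 10 arrays was at least 12 for 23 of 40 genes on the rhesus arrays and for 46 of 61 on the human arrays, and below 4 for 3 and 5 genes. The genes below 4 were RPL3L, RPS19 and RPS27L on the rhesus arrays, and RPL3L, RPL10L, RPL36A, RPL39L and RPLP2 on the human arrays. Every array read RPL3L on the rhesus arrays, and RPL3L, RPL39L and RPLP2 on the human arrays, below 3.12. A low value can come from the probe set, since RPLP2 lay at 12.06 to 13.27 on the rhesus arrays and RPS19 at 10.75 to 13.65 on the human arrays. Levels of different probe sets are not set against each other.

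**Figure D1:**
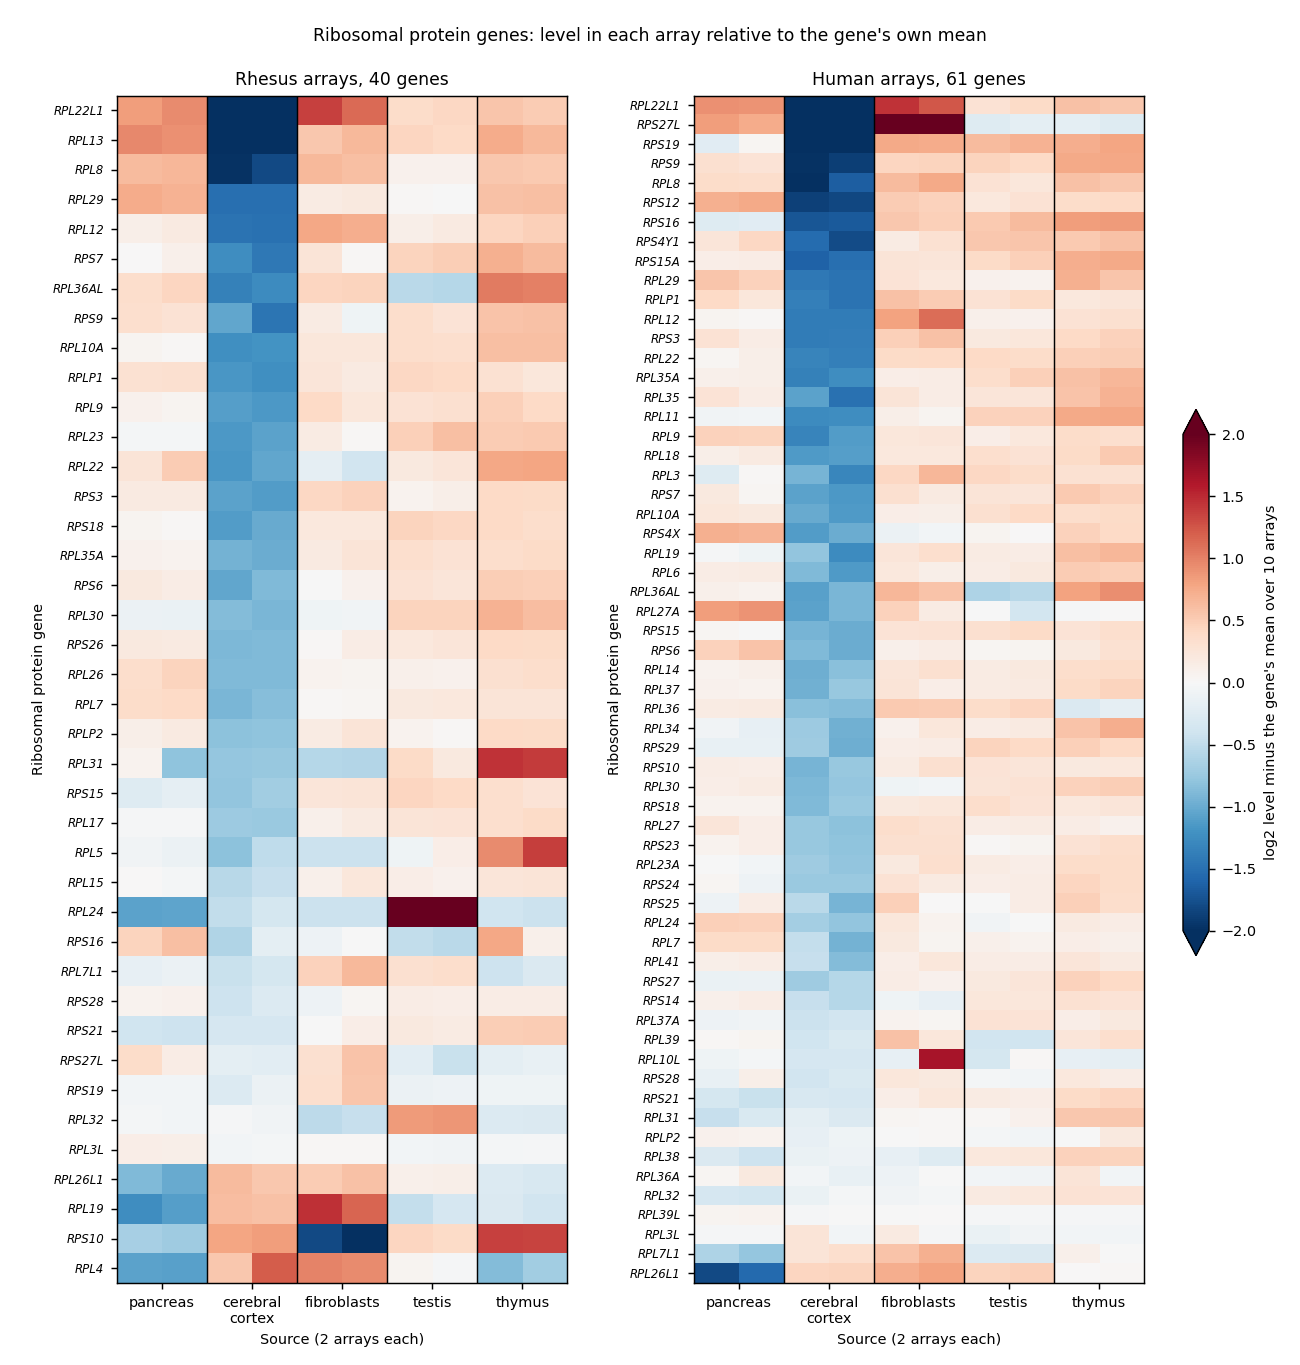
Level of each ribosomal protein gene in each of 10 rhesus arrays (left, 40 genes) and 10 human arrays (right, 61 genes), as log2 level minus the gene's mean over the 10 arrays, with 2 arrays per source and genes ordered by their cortex level. The cortex columns are the lowest for 30 of 40 and 52 of 61 genes, and the thymus columns the highest for 18 and 32.

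In pancreas the ribosomal protein genes as a group lay well above cortex and nearer to fibroblasts, testis and thymus. Their median level was 12.81 and 12.86 in the pancreas arrays of the rhesus type, against 11.29 and 11.28 in cortex, 13.01 and 13.03 in fibroblasts, 12.88 and 12.89 in testis, and 13.08 and 13.08 in thymus. On the human arrays it was 13.02 and 13.09 in pancreas, against 11.83 and 11.72 in cortex, 13.45 and 13.38 in fibroblasts, 13.36 and 13.37 in testis, and 13.60 and 13.57 in thymus. In these deposited values the pancreas medians stood above cortex and below the other 3 sources on both array types.

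Few genes passed the test in pancreas. On the rhesus arrays 2 of 40 were called higher, against 9.81% of all genes, and 4 were called lower, against 23.8% of all genes. On the human arrays 2 of 61 were called higher, against 5.01% of all genes, and 1 lower, against 15.7%. The median difference was 0.09 on rhesus and 0.11 on human arrays, beside −0.10 and 0.03 over all genes. In both directions together, 6 of 40 and 3 of 61 were called, against 33.6% and 20.7% of all genes. Both pancreas arrays lay below all 8 other arrays for 5 of 40 and 6 of 61 genes (13.6% and 10.2% of all genes), and above them for 5 and 8 (22.6% and 32.1%).

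These small positive medians rested on the cortex. Set against fibroblasts, testis and thymus alone, a comparison chosen after seeing the data, the pancreas median was −0.16 on rhesus and −0.18 on human arrays, beside −0.06 and 0.04 over all genes. By limma 0 genes were then called higher on either array type, with 9 and 10 genes above 0 at an unadjusted p below 0.05. The count called lower was 4 of 40 (24.4% of all genes) and 1 of 61 (16.0%), and 9.86% and 5.34% of all genes were called higher.

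Quantile normalization of the deposited values brings all arrays of a type to the same distribution. After it the member medians on the rhesus arrays were 12.91 and 12.92 in pancreas, against 11.18 and 11.17 in cortex, 12.85 and 12.84 in fibroblasts, 12.84 and 12.83 in testis, and 13.00 and 13.01 in thymus. Pancreas thus lay above fibroblasts and testis on that scale, the reverse of the deposited values. By the human type they were 13.14 and 13.17 in pancreas, against 11.76 and 11.65 in cortex, 13.28 and 13.16 in fibroblasts, 13.41 and 13.43 in testis, and 13.46 and 13.45 in thymus, so that pancreas and fibroblast arrays overlapped. The median pancreas difference was then 0.11 and 0.10. The genes called higher in pancreas became RPL8, RPL13, RPL22L1 and RPS16 on the rhesus arrays (15.2% of all genes), and RPL22L1, RPL27A and RPS27L on the human arrays (9.22%). RPL4 on the rhesus arrays (16.0% of all genes) and RPL26L1 on the human arrays (10.2%) were called lower. Both pancreas arrays then lay below all 8 others for 2 of 40 and 5 of 61 genes (13.0% and 13.8% of all genes), and above them for 6 and 10 (17.7% and 20.2%). No gene called in the deposited values changed the sign of its pancreas difference.

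**Figure D2:**
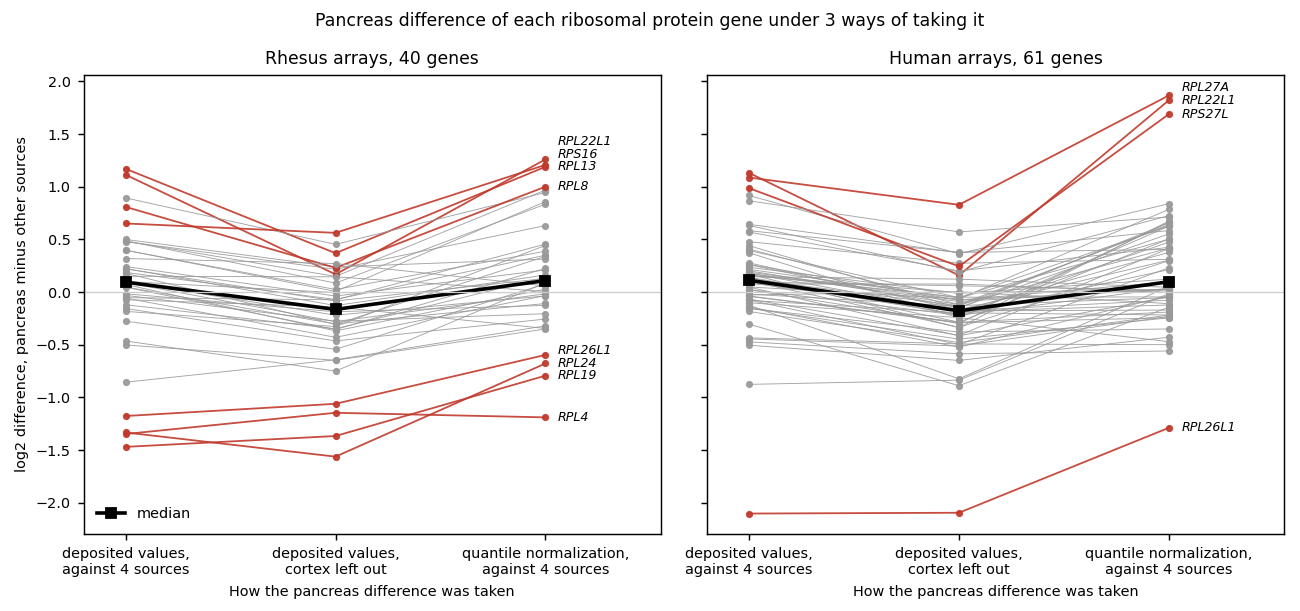
Pancreas difference of each ribosomal protein gene (thin lines, log2, pancreas minus the other sources) in the deposited values, in the deposited values without cortex, and after quantile normalization, on rhesus arrays (left) and human arrays (right); red lines are genes that reach 1 in size in at least 1 of the 3, and black squares are medians. The medians run 0.09, −0.16 and 0.11 on rhesus and 0.11, −0.18 and 0.10 on human arrays.

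The scale of the pancreas arrays moved with another measure. The spiked hybridization controls, added in fixed amounts, averaged 10.72 and 10.69 in pancreas and 9.01 to 9.94 on the other rhesus arrays, and 10.95 and 11.01 in pancreas and 9.52 to 10.18 on the other human arrays. With their level subtracted from every array, the pancreas median of the ribosomal protein genes was −1.0 and −0.99, beside −1.20 and −1.07 over all genes. Then 20 of 40 genes were called lower, against 61.7% of all genes, and 27 of 61, against 65.5%. Both shares lay below those of all genes.

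Signs of RNA quality and the rRNA controls also differed in pancreas. The 3′ minus 5′ level of the GAPDH control was 2.46 and 3.08 in pancreas, against 1.22 to 1.97 in the other rhesus arrays, and 1.32 and 1.30 in pancreas, against 0.07 to 0.52 in the other human arrays. For the actin control it was 4.89 and 4.26 in pancreas, against 2.03 to 2.79 in the other rhesus arrays, and 2.71 and 2.10 in pancreas, against 1.96 to 2.51 in the other human arrays, where the ranges overlapped. The human arrays carry controls for 18S rRNA, the RNA of the small subunit, and 28S rRNA, that of the large one. The 5′ probe set for 18S read 13.61 and 13.60 in pancreas and 6.19 to 8.58 in the other sources. Its 3′ probe set read 9.83 and 9.82 in pancreas and 5.78 to 7.70 elsewhere. For 28S the 5′ probe set read 10.22 and 10.16 in pancreas and 7.77 to 9.46 elsewhere. The 3′ probe set for 28S read 1.66 in both pancreas arrays and 1.63 to 1.65 elsewhere, below the unspiked controls. Pancreas was thus the highest source in the 3 rRNA readings above those controls. The part of these measures in the pancreas differences was not tested.

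RPL22L1, a paralog of RPL22 in the large subunit, was the gene called higher in pancreas on both array types. It read 12.77 and 12.87 in pancreas on the rhesus arrays, against 8.91 and 8.83 in cortex, 13.30 and 13.06 in fibroblasts, 12.30 and 12.34 in testis, and 12.48 and 12.44 in thymus. On the human arrays it read 10.45 and 10.42 in pancreas, against 6.31 and 6.46 in cortex, 10.97 and 10.78 in fibroblasts, 9.82 and 9.92 in testis, and 10.11 and 10.06 in thymus. The order of the 5 sources was the same on both types, with cortex far below the rest and fibroblasts highest, and no neighbours overlapped. The pancreas difference was 1.11 ± 0.07 (SE, adjusted p = 1.71e-05) and 1.13 ± 0.06 (adjusted p = 3.57e-05), but 0.17 and 0.16 without cortex, where it was not called. With the spiked controls described above subtracted it was 0.02 and 0.03, not called. With array medians subtracted it was 0.89 on the rhesus arrays, not called, and 1.01 on the human arrays, still called.

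RPL26L1, a paralog of RPL26 in the large subunit, was the gene called lower in pancreas on both array types. On the rhesus arrays it read 8.92 and 8.79 in pancreas, against 10.43 and 10.33 in cortex, 10.30 and 10.39 in fibroblasts, 9.90 and 9.92 in testis, and 9.52 and 9.47 in thymus. On the human arrays it read 6.74 and 6.98 in pancreas, against 8.98 and 8.99 in cortex, 9.27 and 9.34 in fibroblasts, 8.99 and 9.03 in testis, and 8.56 and 8.56 in thymus. Pancreas lay below every other array of both types. The difference was −1.18 ± 0.05 (SE, adjusted p = 3.14e-06) by the rhesus probe set and −2.10 ± 0.06 (adjusted p = 2.73e-06) by the human one. Quantile normalization brought it to −0.60, no longer called, and −1.29, still called.

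Other large subunit genes were called in pancreas on 1 array type. RPL13 and RPL4 were read only on the rhesus arrays, and RPL27A only on the human arrays. RPL13 read 13.47 and 13.43 in pancreas on the rhesus arrays, against 12.91 to 13.25 in fibroblasts, testis and thymus and 10.01 and 9.75 in cortex, a difference of 1.17 ± 0.07 (SE, adjusted p = 1.99e-05). That was the brightest of 5 probe sets. By the next brightest, RPL13 read 11.76 and 11.75 in pancreas, below thymus at 11.96 and 11.95. RPL4 read 4.06 and 4.04 in pancreas on the rhesus arrays and 4.26 to 6.34 elsewhere, a difference of −1.35 ± 0.16 (adjusted p = 0.000406). RPL27A, on the human arrays, read 7.01 and 7.08 in pancreas and 5.11 to 6.63 elsewhere, a difference of 1.09 ± 0.11 (adjusted p = 0.000465). Of these, RPL4 and RPL27A had probe sets with low values. RPL19 and RPL24 were read on both types and called lower on the rhesus arrays alone, RPL19 at −1.47 ± 0.09 and −0.07 ± 0.11 (SE, adjusted p = 1.79e-05 and 0.644, limma) and RPL24 at −1.33 ± 0.055 and 0.58 ± 0.048 (adjusted p = 3.33e-06 and 0.000201). After quantile normalization both lost the call on the rhesus arrays, at −0.79 and −0.68.

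Smaller pancreas differences recurred on both array types without reaching a log2 difference of 1. RPS21, a small subunit protein, read 12.71 and 12.69 in pancreas on the rhesus arrays and 12.77 to 13.61 elsewhere, and 13.06 and 12.97 in pancreas on the human arrays and 13.08 to 13.85 elsewhere. Its differences were −0.50 ± 0.04 and −0.50 ± 0.04 (SE, adjusted p = 5.8e-05 and 9.62e-05, limma). RPL29, a large subunit protein, had differences of 0.89 ± 0.025 and 0.63 ± 0.045, and RPL7 of 0.48 ± 0.03 and 0.48 ± 0.11. RPL8, which sits near the catalytic centre of the large subunit, was at 0.81 ± 0.05 and 0.44 ± 0.10. Without cortex the differences of these 3 genes ranged from −0.15 to 0.45. The rhesus value of RPL29 came from the brightest of its 3 probe sets. Its dimmer sets read 8.56 and 8.55, and 7.40 and 7.45, in pancreas, against 7.82 to 10.43 and 7.14 to 9.75 elsewhere. By both of these sets pancreas lay below cortex and fibroblasts. RPL31 was at −0.46 ± 0.20 on the rhesus arrays, where its pancreas arrays read 5.47 and 4.6, and at −0.47 ± 0.05 on the human arrays.

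The cortex was where most ribosomal protein genes differed. On the rhesus arrays 22 of 40 were called lower, against 21.1% of all genes, and 2 higher, against 16.6%. On the human arrays 37 of 61 were called lower, against 9.99% of all genes, and 0 higher, against 11.0%, with 2 genes above 0 at an unadjusted p below 0.05. Calls in either direction made up 37.7% and 21.0% of all genes. The median difference was −1.10 and −1.07, beside −0.12 and −0.04 over all genes. Both cortex arrays lay below all 8 other arrays for 27 of 40 genes (17.3% of all genes) and for 50 of 61 (8.83%). Quantile normalization left 18 and 29 genes called lower (21.9% and 11.3% of all genes), with medians of −1.0 and −0.83, and subtracting the spiked controls gave medians of −0.86 and −0.82, beside 0.12 and 0.21 over all genes.

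Both subunits took part. On the rhesus arrays 16 of 27 large subunit genes and 6 of 13 small subunit genes were called lower in cortex, with medians of −1.10 and −0.93. On the human arrays 22 of 39 and 15 of 22 were called lower, with medians of −1.07 and −1.19. Of the 32 genes on both array types, 16 were called lower on both. The share of all genes called lower on both types was not taken, so this count is not read as a trait of these genes.

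**Figure D3:**
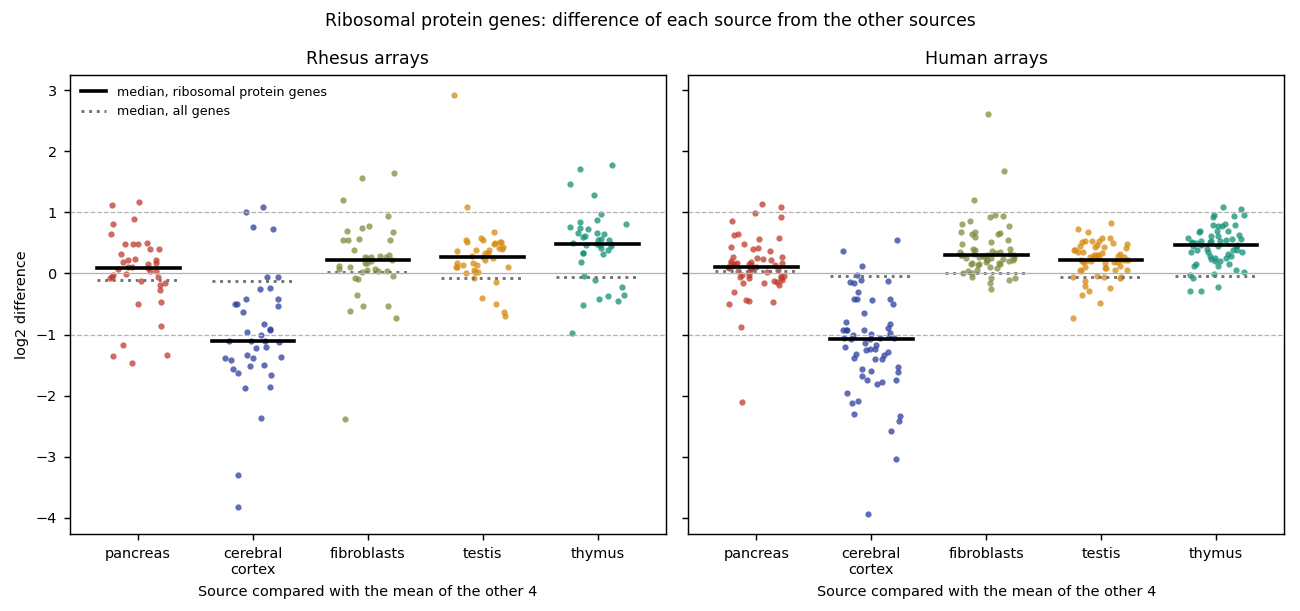
log2 difference of each ribosomal protein gene (points) between the source named on the x axis and the mean of the remaining 4, on rhesus arrays (left) and human arrays (right); black bars are medians of these genes, dotted bars medians of all genes, and dashed lines mark −1 and 1. The cortex medians are −1.10 and −1.07, and the thymus medians 0.49 and 0.46.

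RPL22L1 had the largest cortex difference on both array types. It was −3.82 ± 0.07 (SE, adjusted p = 4.28e-08), or 14.2-fold lower, with rhesus arrays, and −3.93 ± 0.06 (adjusted p = 1.16e-07), or 15.3-fold lower, with human arrays. RPL8 read 10.12 and 10.29 in cortex on the rhesus arrays, against 12.18 to 12.76 elsewhere, and 10.47 and 10.90 in cortex on the human arrays, against 12.78 to 13.30. It was 5.17-fold lower (−2.37 ± 0.05, adjusted p = 7.32e-08) and 5.03-fold lower (−2.33 ± 0.10, adjusted p = 1.14e-05). RPS9, a small subunit protein, read 9.38 and 8.95 in cortex on the rhesus arrays and 10.34 to 11.01 elsewhere, and 10.34 and 10.44 in cortex on the human arrays and 12.60 to 13.09 elsewhere. For none of these 3 genes did a cortex array reach the lowest array of another source.

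The other genes called lower on both types were RPL9, RPL10A, RPL12, RPL22, RPL29, RPL30, RPL35A, RPL36AL and RPLP1 of the large subunit, and RPS3, RPS6, RPS7 and RPS18 of the small one. Of these RPL12 (−1.86 and −1.75), RPL10A (−1.52 and −1.33), RPS3 (−1.37 and −1.74) and RPS6 (−1.20 and −1.17), a substrate of S6 kinase downstream of mTOR, are named with values after they were seen. RPLP1, of the acidic stalk that binds elongation factors on the large subunit, read 12.21 and 12.15 in cortex, against 13.55 to 13.79 elsewhere on the rhesus arrays, and 11.06 and 10.96 in cortex, against 12.64 to 13.02 elsewhere on the human arrays. Its differences were −1.5 ± 0.03 and −1.78 ± 0.06 (SE, adjusted p = 1.48e-07 and 2.46e-06, limma). Its partner RPLP2 was at −1.01 ± 0.035 on the rhesus arrays, while the human probe set read 2.27 to 2.63 on all arrays and measured no source above background.

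Some members were not lower in cortex. RPL26L1 was at 0.73 and 0.55 and RPL32 at −0.06 and −0.11, none of them called. RPL7L1, whose product takes part in ribosome assembly, was at −0.50 and 0.37. RPL4, with 5.67 and 6.34 in cortex, against 4.04 to 6.12 elsewhere, was called higher on the rhesus arrays at 1.09 ± 0.16 (adjusted p = 0.00123, limma), with overlapping cortex and fibroblast arrays.

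How the cortex count reads depends on the probe sets. Affymetrix marks with an s or x the probe sets whose probes also match other transcripts, which for this family can be processed pseudogenes or near-identical copies. Such sets were the brightest of 13 of 40 genes on rhesus and 44 of 61 on human arrays. With s and x sets left out, 34 and 37 genes remained measured, of which 12 (35.3%) and 13 (35.1%) were called lower in cortex, against 20.6% and 7.43% of all genes read the same way. The median difference was then −0.51 and −0.42, and 6 rhesus genes were called higher, against 16.8% of all genes. On the human arrays many genes then rested on a dim probe set, which cannot show a fall: its mean level was below 4 for 20 of 37. On the rhesus arrays this held for only 3 of 34 genes. Genes whose remaining set averaged at least 8 were then taken, a split chosen after seeing the data. Of these, 12 of 27 and 11 of 15 were called lower in cortex, and 5 and 0 higher by limma. Their median differences were −0.92 and −1.40. Shares of all genes at that level were not taken, so these counts are not read as a trait of these genes. How far matches to other transcripts enter the cortex result was not tested on either array type.

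For 5 genes of the rhesus arrays, named after their values were seen, probe sets of the same gene were called in opposite directions in cortex. RPL9 was lower by its brightest probe set (−1.41) and higher by its second (4.02), which read 11.48 and 11.51 in cortex, against 5.66 to 8.77 elsewhere. The dimmest of the RPL22 probe sets was at 4.88, with 7.16 and 7.25 in cortex, against 2.23 to 2.56 elsewhere. RPL29 was at −1.88, 1.78 and 2.12 over its probe sets, RPL26 at −1.10 and 1.75, and RPL13 at −3.30 and −2.81 in its brightest sets and 1.13 in a dim one. In all 5 genes the brightest set was the one lower in cortex, and it was an s or x set.

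The thymus held the highest level of more ribosomal protein genes than any other source, 18 of 40 on rhesus and 32 of 61 on human arrays. Both thymus arrays lay above all 8 others for 18 of 40 genes (16.2% of all genes) and 25 of 61 (10.3%). The shifts were small: the median difference was 0.49 and 0.46, beside −0.06 and −0.04 over all genes, and 4 and 2 genes were called higher, against 16.7% and 9.65% of all genes. By limma 0 were called lower, against 18.1% and 10.1% of all genes, with 6 and 2 below 0 at an unadjusted p below 0.05. In either direction 34.8% and 19.7% of all genes were called. RPL36AL, an autosomal copy of the X-linked RPL36A, was called on both types. It read 12.80 and 12.76 in thymus, against 10.41 to 12.20 elsewhere on the rhesus arrays, and 12.96 and 13.07 in thymus, against 11.07 to 12.81 elsewhere on the human arrays. Its thymus differences were 1.28 ± 0.04 (SE, adjusted p = 5.61e-07) and 1.08 ± 0.06 (adjusted p = 2.72e-05).

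The lead of thymus depended on the scale and the probe sets. After quantile normalization both thymus arrays lay above all 8 others for 14 of 40 genes (14.4% of all genes) and 14 of 61 (9.58%). Both testis arrays did so for 5 of 40 (11.7%) and 13 of 61 (8.27%), against 5 of 40 (12.2%) and 2 of 61 (7.79%) in the deposited values. The median differences after quantile normalization were 0.43 and 0.34 in thymus and 0.27 and 0.35 in testis. By this measure thymus and testis were nearly level on the human arrays. Thymus kept the highest member medians there, 13.46 and 13.45, against 13.41 and 13.43 in testis. Without s and x probe sets the thymus medians were 0.41 and 0.041. Then 5 of 34 and 4 of 37 genes were called higher in thymus, against 16.5% and 7.91% of all genes, and 3 and 0 lower by limma, against 18.1% and 8.79%, with 10 and 2 below 0 at an unadjusted p below 0.05. The dim probe sets described above for the human arrays enter these values too.

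In fibroblasts the median difference was 0.21 and 0.30, beside 0.03 and 0.002 over all genes. Called higher were RPL4, RPL19 and RPL22L1 on the rhesus arrays (18.0% of all genes) and RPL12, RPL22L1 and RPS27L on the human arrays (11.3%). RPL22L1 was the gene called on both, at 1.56 ± 0.07 (SE, adjusted p = 3.44e-06) and 1.68 ± 0.06 (adjusted p = 7.02e-06). RPS10 was called lower on the rhesus arrays, at −2.38 ± 0.05 (14.9% of all genes called lower), and 0 genes by limma on the human arrays (8.10%), where 3 were below 0 at an unadjusted p below 0.05. Calls in either direction covered 32.9% and 19.4% of all genes.

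Testis had a median difference of 0.28 and 0.22, beside −0.08 and −0.06 over all genes. RPL24 and RPL32 were called higher there on the rhesus arrays (16.1% of all genes), at 2.92 ± 0.055 and 1.08 ± 0.028 (SE, adjusted p = 1.77e-07 and 5.77e-07, limma). By limma 0 of 61 genes were called in testis on the human arrays, with 44 at an unadjusted p below 0.05, and an ordinary analysis of variance contrast also called 0. By the call rule, not the unadjusted p, the shares of all genes there were 8.67% higher, 5.63% lower and 14.3% in either direction. On the rhesus arrays 0 of 40 were called lower by limma, with 5 below 0 at an unadjusted p below 0.05 (11.2% of all genes called lower and 27.3% in either direction). RPL24 read 13.76 and 13.83 in testis on the human arrays, against 13.05 to 14.31 elsewhere, and RPL32 13.94 and 13.98, against 13.40 to 14.05. Without s and x probe sets the testis median was 0.28 on rhesus arrays and turned to −0.026 on human arrays.

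Further paralogs followed other patterns. RPS27L, a paralog of RPS27 and a target of p53 in human cells, read 10.56 and 10.46 in pancreas on the human arrays, against 7.25 and 7.33 in cortex, 11.85 and 11.76 in fibroblasts, 9.46 and 9.52 in testis, and 9.52 and 9.47 in thymus. It was called higher in fibroblasts (2.61 ± 0.04, SE, adjusted p = 2.91e-07) and lower in cortex (−3.03 ± 0.04, adjusted p = 7.4e-08). In pancreas it stood at 0.99 ± 0.04 and passed without the second pancreas array, at 1.04, and after quantile normalization, at 1.69. Its rhesus probe set read 2.48 to 3.50 on all arrays.

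RPL10L and RPL39L, known from human and mouse testis, were read on the human arrays alone. There they read close to the unspiked controls or below them in the testis arrays. The paper reports that mismatches between rhesus transcripts and human probes lower the signal. The part of such mismatches in these low values was not tested. RPL10L was at 2.89 and 3.26 in testis, against 2.90 to 4.89 elsewhere, the highest value being 1 fibroblast array whose partner read 3.08. RPL39L read 2.44 and 2.44 in testis and 2.44 to 2.53 elsewhere, and RPL3L 2.43 and 2.49 in testis and 2.50 to 2.81 elsewhere on the human arrays. RPS4Y1, a Y-linked paralog of RPS4X, read 12.82 and 12.99 in pancreas, 11.04 and 10.79 in cortex, 12.75 and 12.88 in fibroblasts, 13.12 and 13.13 in testis, and 13.11 and 13.16 in thymus. Its sequence is close to that of RPS4X, and their reads on the human arrays cannot be told apart here. RPL7L1 had pancreas differences of −0.18 ± 0.06 and −0.88 ± 0.06, neither called.

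**Figure D4:**
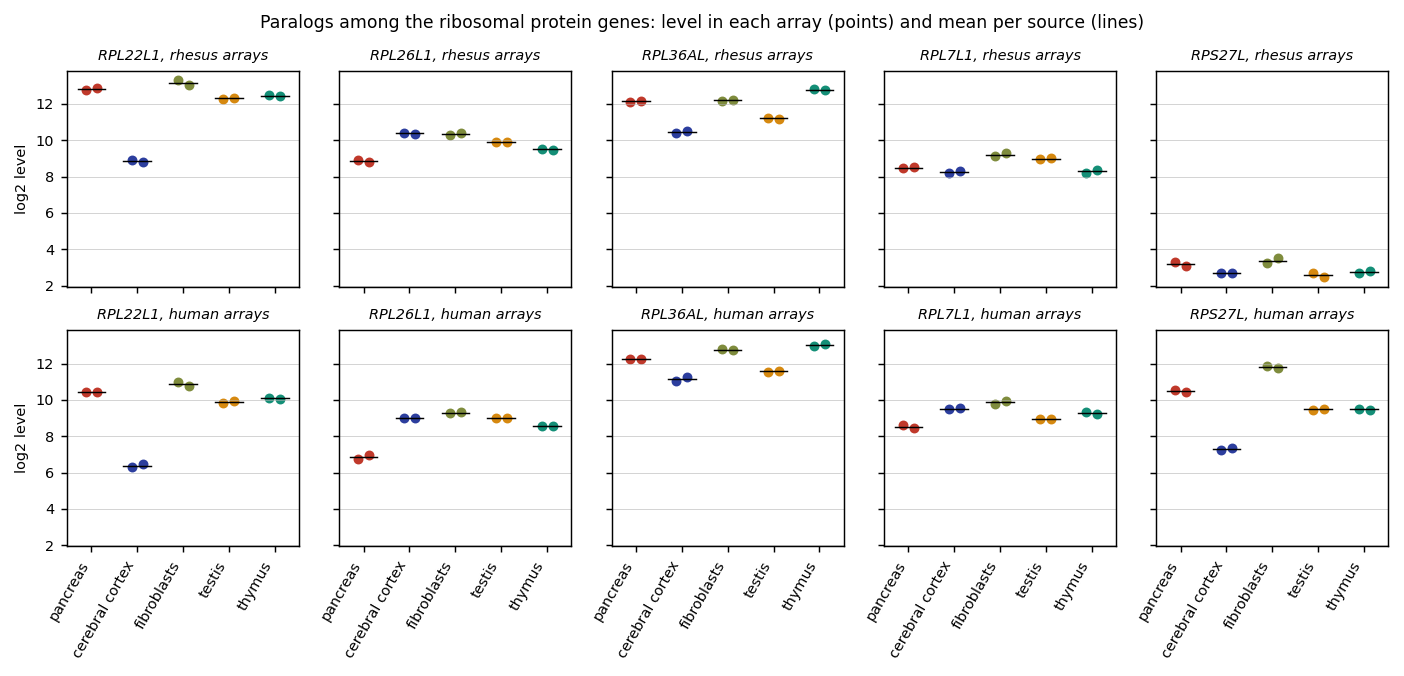
log2 level of 5 paralogs in each array (points, 2 per source, bars for the mean) on rhesus arrays (top row) and human arrays (bottom row). RPL22L1 is lowest in cortex and RPL26L1 lowest in pancreas on both types, and RPS27L lies at 2.48 to 3.50 on the rhesus arrays and 7.25 to 11.85 on the human arrays.

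For the 32 genes read on both array types, the source differences could be compared between types. The pancreas differences had the same sign for 25 genes, with Pearson's r of 0.51 across genes, and the cortex differences for 28, with r of 0.57. Genes are not independent replicates, and both types read the same RNA preparations. The difference between array types, tested by limma over all 20 arrays, passed for 3 of 32 genes in pancreas (21.8% of all genes) and 5 of 32 in cortex (20.3%).

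RPL19 and RPS10 were in both groups. RPL19 read 7.78 and 7.92 in pancreas and 9.65 and 9.61 in cortex on the rhesus arrays, against 8.55 to 10.49 in the remaining sources, and 11.97 and 11.91 in pancreas and 11.20 and 10.74 in cortex on the human arrays, against 12.14 to 12.65. Pancreas was the lowest source on the rhesus arrays and cortex on the human arrays. RPS10 read 9.38 and 9.33 in pancreas and 10.83 and 10.87 in cortex on the rhesus arrays, against 8.04 to 11.41 in the remaining sources, and 13.96 and 13.94 in pancreas and 12.87 and 13.06 in cortex on the human arrays, against 13.97 to 14.12. It was the 1 gene called in opposite directions in cortex, at 1.01 ± 0.05 and −1.05 ± 0.06 (SE). RPL24 read 6.98 and 7.0 in pancreas on the rhesus arrays, the lowest source, and 14.31 and 14.30 on the human arrays, the highest, with differences of −1.33 ± 0.055 and 0.58 ± 0.048. RPS16 read 4.07 to 5.45 on all rhesus arrays and was at 0.65 ± 0.18 and −0.30 ± 0.03 in pancreas.

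**Figure D5:**
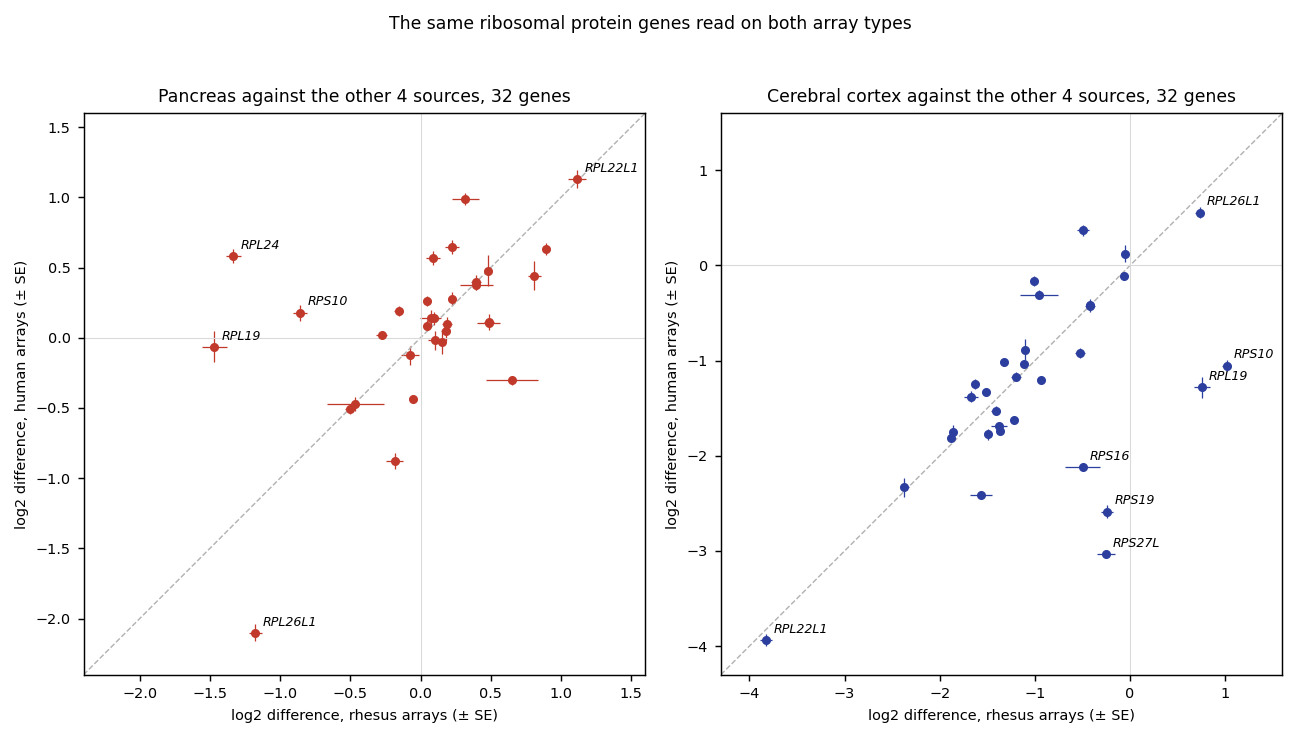
log2 difference (± SE) on rhesus arrays (x axis) and human arrays (y axis) of the 32 ribosomal protein genes read on both, in pancreas (left) and cerebral cortex (right), with the line of equal values dashed. RPL19, RPL24 and RPS10 lie off the line in pancreas, and RPL19, RPS10, RPS16, RPS19 and RPS27L in cortex.

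Genes that work with the ribosome were read from 5 companion lists. The lists were chosen with earlier results of these data in view. The list of other TOP genes overlaps with the elongation factors, and shared genes count in both. Of other TOP genes, 4 of 8 on rhesus and 5 of 10 on human arrays were called lower in cortex, against 21.1% and 9.99% of all genes, and 2 and 0 higher by limma, against 16.6% and 11.0%. RACK1, a scaffold protein of the small subunit, read 10.69 and 10.71 in cortex on the rhesus arrays, against 13.41 to 13.94 elsewhere (−2.92 ± 0.03, SE, adjusted p = 3.28e-09). BTF3 and NACA, the subunits of the nascent polypeptide-associated complex, were lower on both types, BTF3 at −1.09 and −1.38 and NACA at −1.80 and −1.01. FAU, whose product is a ubiquitin-like protein fused to the small subunit protein eS30, was at −0.71 and −0.81, and TPT1 and EEF1A1 were at −0.75 and −0.82 on the human arrays, none of them called. In pancreas FAU was at −0.02 and −0.06, TPT1 at 0.61 and EEF1A1 at 0.04. Of all other TOP genes measured, 3 of 8 and 2 of 10 were called lower in pancreas, against 23.8% and 15.7% of all genes. By limma 0 and 1 were called higher there, against 9.81% and 5.01%, and the medians were −0.61 and 0.03.

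Among initiation factors, 10 of 23 and 9 of 28 were called lower in cortex, against 21.1% and 9.99% of all genes, with medians of −0.94 and −0.71. Most of them were subunits of eIF3, the factor that prepares the small subunit for mRNA: EIF3A, EIF3D, EIF3E, EIF3F, EIF3H and EIF3L were called on both types, as was EIF6, which keeps free 60S subunits apart from 40S subunits. Of elongation factors, 4 of 7 on rhesus and 1 of 8 on human arrays were called higher in cortex (16.6% and 11.0% of all genes), and 2 of the 8 lower, with medians of 1.08 and −0.49. In pancreas 3 of 7 and 1 of 8 were called lower, against 23.8% and 15.7% of all genes. By limma 0 and 1 were called higher there, against 9.81% and 5.01%, and the medians were −0.94 and 0.11. EEF1A2, the form of elongation factor 1A used in neurons and muscle, was higher in cortex on both types, at 8.16 ± 0.13 and 6.63 ± 0.20 (SE, adjusted p = 2.7e-08 and 2e-06, limma). EEF1D was called in opposite directions on the array types, at 2.40 and −2.74 in cortex and −2.85 and 1.67 in pancreas. EEF2, which moves the ribosome along the mRNA, was at −0.52 in cortex and 0.19 in pancreas on the human arrays, neither called. Its rhesus probe set, which read only 1.95 to 4.53, was called higher in cortex at 1.08 ± 0.256 (SE, adjusted p = 0.012, limma) and lower in pancreas at −1.46 ± 0.256 (adjusted p = 0.00257).

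Ribosome biogenesis factors were lower in pancreas in larger number than the ribosomal protein genes. On each array type 9 of 19 were called lower, against 23.8% and 15.7% of all genes. By limma 0 of these factors were called higher, against 9.81% and 5.01% of all genes. Their medians were −0.98 and −0.94, beside 0.09 and 0.11 for the ribosomal protein genes, a difference not tested itself. The lists of 9 shared 1 gene. It was RRN3, a transcription factor of RNA polymerase I, which makes the rRNA precursor, at −1.26 ± 0.11 and −2.08 ± 0.14 (SE, adjusted p = 0.000109 and 7.87e-05, limma). NPM1, a nucleolar chaperone, was at −0.43 and −1.29, NCL (nucleolin) at −1.12 and −0.46, and FBL (fibrillarin, which methylates rRNA) at −0.98 and −0.72. After quantile normalization 3 of 19 were called lower on each type, against 16.0% and 10.2% of all genes, with medians of −0.48 and −0.57, and RRN3 was then called on the human arrays alone. In cortex 7 of 19 and 3 of 19 of these factors were also called lower, against 21.1% and 9.99% of all genes, with medians of −0.56 and −0.32. In fibroblasts 6 of 19 were called higher on each type, against 18.0% and 11.3% of all genes. Mitochondrial ribosomal protein genes, a separate family, had 11 of 62 and 12 of 75 called lower in pancreas, against 23.8% and 15.7% of all genes (medians −0.20 and −0.31). In cortex 10 of 62 and 3 of 75 were lower, against 21.1% and 9.99% (medians −0.20 and −0.08), and in fibroblasts 16 of 62 and 13 of 75 were higher, against 18.0% and 11.3% (medians 0.69 and 0.62).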

How the data were processed

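Rhesus macaque RNA of 5 sources was read on 10 rhesus and 10 human arrays. For each array type the authors deposited a table of expression summaries on the log2 scale. Notes by the submitters list RMA among the tools and give no version. Which arrays were processed together is not given in the sources used here, so each type was fitted by itself. The study's methods describe a quantile normalization of perfect-match probe intensities between the replicate arrays of a source. Whether the deposited summaries carry that step is not stated, and if they do, the spread between such arrays, on which the p-values rest, is narrowed. All columns were used, and sources were taken from the labels. Gene symbols came from the platform annotation. Of the 40 rhesus symbols, 40 matched the RefSeq gene table. The members, lists and rules for named genes were chosen with earlier results of these data known. Named were the 5 lowest and 5 highest mean pancreas differences, the 3 largest of each other source called on both types, the 5 largest differences between types in pancreas, the paralogs, the stalk proteins with RPSA, members with opposite probe sets or a call turned by quantile normalization in pancreas, and a few companion genes. Other genes are named from short lists of calls or after their values were seen. Fits used limma 3.58.1 in R 4.3.3 over 52766 rhesus and 54613 human probe sets. The difference between types was a limma contrast of gene values over all 20 arrays. The limma step was checked on simulated data. Quantile normalization was applied to the deposited summaries, not to probes, and the scaling by spiked controls used 9 probe sets per type. Of 8 marker lists, 5 were for the sources, and the red blood cell, fat cell and lymphocyte lists gave 1 gene, 1 gene and 0 genes called higher in pancreas on each array type. Alternatives were scalings, probe set choices, no minimum difference, an analysis of variance contrast, a replicate block, and each array left out in turn.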

Additional observations from a re-analysis of the deposited data

Results flagged for a closer look

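For 8 values the source difference itself differed between the array types, tested as the human minus the rhesus difference by limma over all 20 arrays. In pancreas the value was 1.92 for RPL24, 1.40 for RPL19 and 1.03 for RPS10. In cortex it was −2.78 for RPS27L, −2.35 for RPS19, −2.06 for RPS10, −2.04 for RPL19 and −1.62 for RPS16. On the rhesus arrays RPS27L, RPS19 and RPS16 read at most 5.45 in every source.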

How the results depend on the processing

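Counts below are given for rhesus and then human arrays, most of them without the share of all genes. They show the effect of a setting and are not read as a trait of these genes. Without a minimum difference, 28 and 39 ribosomal protein genes were called in pancreas (9 and 11 lower, 19 and 28 higher), 29 and 40 in fibroblasts, 33 and 41 in testis, 37 and 48 in thymus, and 56 in cortex on the human arrays. The difference between array types then passed for 17 genes in pancreas and 19 in cortex. With spiked controls subtracted, 20 and 27 were called in pancreas, all lower and 0 and 0 higher, with medians of −1.0 and −0.99. Of all genes, 61.7% and 65.5% were then called lower. Both pancreas arrays then lay below all others for 18 and 27. On that scale 24 and 25 were called in fibroblasts, where the medians were 1.09 and 0.97, beside 0.91 and 0.67 over all genes, 1 in testis (rhesus) and 6 in thymus (human), and RPL39L and RPLP2, dim on the human arrays, turned to −1.02 and −1.0 in pancreas. Without s and x probe sets, 7 were called in fibroblasts on the rhesus arrays, 8 and 4 in thymus, 1 in testis on the human arrays, 13 in cortex on the human arrays, and 12 and 13 lower in cortex. In pancreas that choice gave 1 gene higher and 1 with both arrays below all others on the human arrays, and medians of 0.0605 and 0.063. Fewer genes are measured without these sets, and 20 of the 37 on the human arrays then rest on probe sets with a mean below 4.

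Quantile normalization gave 1 gene lower, 4 higher, a median of 0.11 and 2 genes below all others in pancreas on the rhesus arrays, and 1 gene called in testis and 1 in thymus on the human arrays. Subtracting array medians gave 0 and 1 higher in pancreas, 2 lower on the human arrays, and medians of −0.13 and −0.014. Averaging the probe sets of each gene gave 1 higher on the rhesus arrays, medians of 0.0605 and 0.135, 3 genes below all others on the human arrays, and 9 array type differences in cortex, against 3 with dim probe sets left out. Without cortex, 0 and 0 were higher in pancreas, with medians of −0.16 and −0.18. Other causes of these changes were not tested.

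Leaving out each array in turn gave 6 to 6 and 3 to 4 genes called in pancreas, with medians of 0.089 to 0.10 and 0.11 to 0.14. The lower calls were 4 to 4 and 1 to 1, the higher calls 2 to 2 and 2 to 3, and the genes below all others 5 to 6 and 6 to 6. In cortex 22 to 25 and 35 to 38 were called, and 21 to 23 and 35 to 38 were lower. The ranges were 4 to 4 and 3 to 4 in fibroblasts, 2 to 2 and 0 to 0 in testis, and 4 to 5 and 2 to 2 in thymus. Array type differences ran from 3 to 4 in pancreas and 5 to 6 in cortex.

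Arrays of different sources share replicate numbers in the labels. Their deviations correlated at −0.03 to 0.01 on the rhesus and −0.03 to 0.02 on the human arrays over 10 pairs of sources, with 0 above 0.1. Correlations of the deposited summaries cannot show whether arrays of the same number were handled together. With the replicate number as a block, 6 and 3 genes were called in pancreas and 24 and 37 in cortex, the same counts as without it, and no other call on the named genes or counts changed.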
